A study of Mus musculus with 2 samples.

Results

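The genes of the cytosolic ribosomal proteins were examined in DNase-seq data, a method that finds open chromatin by its sensitivity to cutting by DNase I. Members were the protein-coding genes of GENCODE mouse release M21 whose symbol is Rpl or Rps with a number, with or without a final a or x, together with Rplp0, Rplp1, Rplp2 and Rpsa. This rule, which uses no measured value, took 76 of 21938 protein-coding genes, 46 of the large and 30 of the small ribosomal subunit. Both libraries came from MN1, an immortalized mouse cell line of strain B6NCrl, exposed to 10 nM methyltrienolone, a synthetic androgen, and the labels number them as biological replicates 1 and 2. The treatment was common to both libraries, and without an untreated library no value speaks to a response to it. The labels name no tissue.

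Ribosomal proteins pack around the ribosomal RNAs of the small subunit, which reads the messenger RNA, and of the large subunit, which joins the amino acids. Growing cells need all of them in similar amounts, and their genes are among the most heavily transcribed of any cell. Their messenger RNAs start with a C and a run of pyrimidines, the 5′ terminal oligopyrimidine or TOP sequence, through which the mTOR kinase pathway controls their translation. At the DNA level the same letters form a polypyrimidine initiator that stands in for the usual initiator of transcription.

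After removal of repeated entries and of sequences outside the main chromosomes, 189648 peaks of replicate 1 and 170745 of replicate 2 were used, each 150 bp wide. The authors gave each peak a score from 1 to 150, the meaning of which no label or header states, and its median over all peaks was 53 in replicate 1 and 51 in replicate 2. Read depth is unknown. Of 12 neuronal marker genes 11 had an open promoter in both libraries, led by Tubb3, Hand2, Nefh and Syt1 and with the exception of Mnx1, against 1 of 10 markers of other cell types, the astrocyte gene Gfap.

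All 76 ribosomal protein genes had an open promoter (95% Wilson interval 95.2% to 100%, which like all intervals here covers counting error only). A promoter was called open where peaks of both replicates overlapped each other, forming a shared region, within 1 kb of any annotated transcription start site (TSS) of the gene. By the same measure 13054 of 21938 protein-coding genes were open, a background of 59.5%. In each replicate alone, all 76 members had a promoter peak, with a background of 60.8% in replicate 2 and 61.9% in replicate 1. This adds little, since a shared region already needs overlapping peaks of both replicates. When peaks had to cover at least 50% of each other, 75 of the 76 stayed open and Rpl21, a protein of the large subunit, did not. The highest promoter peaks of Rpl21 scored 127 in replicate 1 and 126 in replicate 2 but were centred at 180 bp and 100 bp downstream of its main TSS. The main TSS is that of the best ranked APPRIS principal transcript.

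The highest promoter peaks of the members covered the upper and middle parts of the promoter ranks. The scores ran from 103 to 150 in replicate 1, with a median of 143, and from 99 to 149 in replicate 2, with a median of 134. Each score was also placed as a percentile among the protein-coding genes with a promoter peak in the same list, 13587 in replicate 1 and 13345 in replicate 2, since the lists differ in scale. The members' median percentile was 70.5 in replicate 1 and 66.0 in replicate 2, with a mean of 68.3 ± 3.20 (SD, n = 2). By the lower of both percentiles, which is used from here on to rank genes, the median member stood at 60.9 (quartiles 42.5 and 74.4) and the median open protein-coding gene at 46.7 (quartiles 24.8 and 70.5). Few members stood at the bottom of the ranks. Over the 50th percentile stood 50 of 76 (65.8%, against 45.7% of open genes), over the 90th 7 (9.21% against 5.88%) and under the 25th 2 (2.63% against 25.1%). With 1 group of 2 libraries no test of these differences was made.

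**Figure D1:**
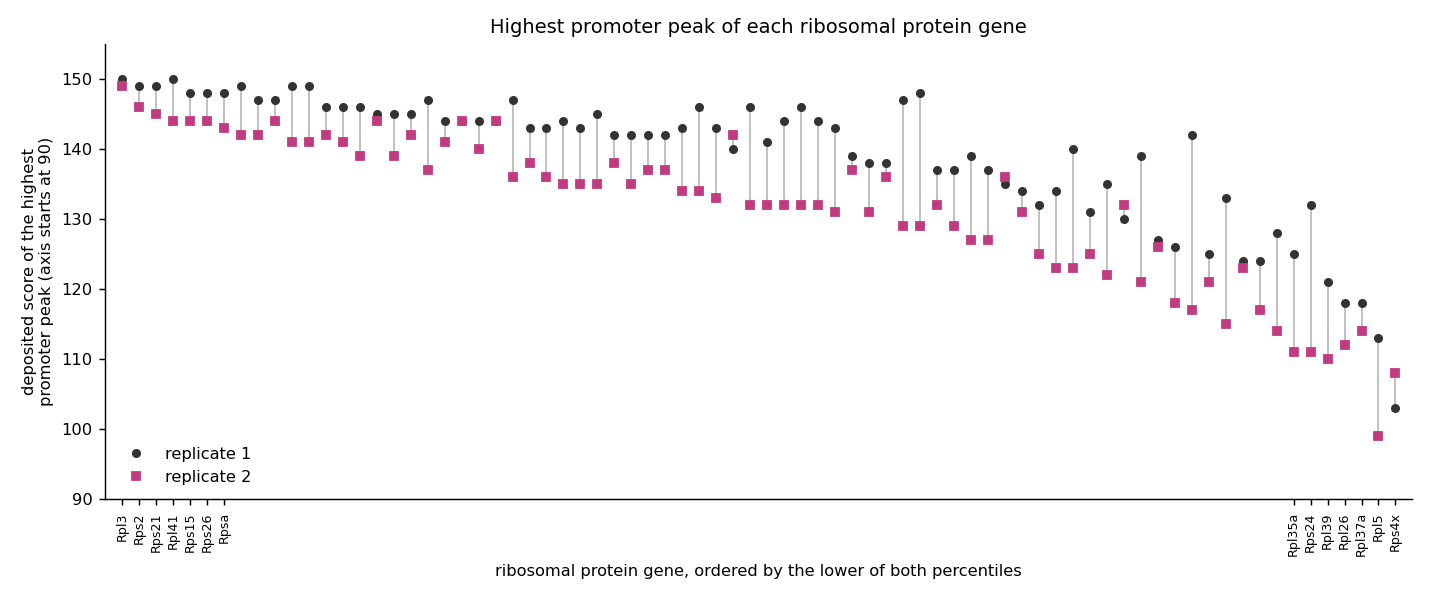
Deposited score (vertical axis, starting at 90) of the highest promoter peak of each of the 76 ribosomal protein genes (horizontal axis, ordered by the lower of both percentiles, with the highest and lowest 7 named), with circles for replicate 1 and squares for replicate 2 joined by a line. All points lie between 99 and 150, and replicate 1 is the higher in 70 genes.

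The highest member promoter score was that of Rpl3, a large-subunit protein that reaches into the catalytic centre, with scores of 150 and 149 in replicates 1 and 2 and a lower percentile of 98.8. Rps2, a protein at the entry of the messenger RNA channel, followed with 149 and 146. Rps21 scored 149 and 145, and Rpl41, the smallest ribosomal protein, 150 and 144. Rps15, at the decoding site, and Rps26, at the exit of the messenger RNA channel, each scored 148 and 144 and tied at a percentile of 91.6 with Rpsa, known also as the laminin receptor, which scored 148 and 143. All 7 thus scored 143 or more in both libraries. In replicate 1 the score of 150 was reached by 2 members, Rpl3 and Rpl41, and by 320 protein-coding genes in all, and in replicate 2 by no member and by 12 genes. The mm10 sequences of the 6 highest, from 60 bases before the main TSS to base 20 from it, are printed because they show how unlike these promoters are around the start. Capitals mark a C followed by at least 4 pyrimidines at the annotated start or within 5 bases of it, where there is one.
Rpl3, chr15:80083387-80083466, minus strand: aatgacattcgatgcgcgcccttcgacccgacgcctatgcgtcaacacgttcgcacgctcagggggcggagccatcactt
Rps2, chr17:24720050-24720129, plus strand: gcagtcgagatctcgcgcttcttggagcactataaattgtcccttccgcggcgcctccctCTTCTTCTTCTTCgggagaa
Rps21, chr2:180257317-180257396, plus strand: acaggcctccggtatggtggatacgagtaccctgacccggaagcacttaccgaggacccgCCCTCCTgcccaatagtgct
Rpl41, chr10:128549286-128549365, minus strand: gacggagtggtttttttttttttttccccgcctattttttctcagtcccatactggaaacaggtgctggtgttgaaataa
Rps15, chr10:80292393-80292472, plus strand: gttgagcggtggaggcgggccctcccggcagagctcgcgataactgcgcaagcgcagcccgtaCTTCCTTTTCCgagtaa
Rps26, chr10:128626728-128626807, minus strand: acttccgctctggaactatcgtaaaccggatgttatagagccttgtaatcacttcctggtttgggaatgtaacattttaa
Rps2 and Rps21 carry a pyrimidine run of 13 and 7 bases at the annotated start, and that of Rps15 has 11 bases and begins 3 bases after it. Rpl3, Rpl41 and Rps26 show none there. The centre of the highest Rpl3 peak was at -45 bp from the TSS in replicate 1 and at -65 bp in replicate 2, where a negative value is upstream, so both peaks overlap the printed bases. The Rps2 sequence also holds the letters TATAAA between bases -40 and -15, the only TATA box among the 76 members (1.32%, against 2.38% of all and 1.05% of open protein-coding promoters).

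The lowest was Rps4x, an X-linked gene of the small subunit, with scores of 103 and 108 and a lower percentile of 20.2. Rpl5, which carries the 5S RNA into the large subunit, scored 113 and 99 (percentile 21.7). Rpl37a followed with 118 and 114 and Rpl26 with 118 and 112, both at 28.0, and Rpl39, which lines the tunnel through which the new protein leaves, with 121 and 110. Rps24 (132 and 111) and Rpl35a (125 and 111) tied at 29.5. Rpl5 and Rps4x alone were below the 25th percentile, so even the weakest member stood at the 20.2 percentile or higher in each list. Their promoters are printed in the same way, because 2 of them show that a complete pyrimidine start also occurs at the weak end.
Rps4x, chrX:102189375-102189454, minus strand: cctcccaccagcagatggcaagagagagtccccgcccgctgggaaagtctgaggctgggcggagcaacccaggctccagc
Rpl5, chr5:107900442-107900521, plus strand: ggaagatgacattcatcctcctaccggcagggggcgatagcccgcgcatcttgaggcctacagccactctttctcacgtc
Rpl37a, chr1:72711230-72711309, plus strand: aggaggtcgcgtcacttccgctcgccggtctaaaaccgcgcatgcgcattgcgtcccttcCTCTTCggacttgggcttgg
Rpl26, chr11:68901523-68901602, plus strand: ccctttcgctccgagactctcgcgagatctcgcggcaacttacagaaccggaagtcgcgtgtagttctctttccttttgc
Rpl39, chrX:37085383-37085462, minus strand: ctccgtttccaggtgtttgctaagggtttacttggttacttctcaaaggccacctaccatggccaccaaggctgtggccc
Rps24, chr14:24490658-24490737, plus strand: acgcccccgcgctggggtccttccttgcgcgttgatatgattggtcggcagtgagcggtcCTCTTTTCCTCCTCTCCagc
Rpl37a and Rps24 begin with runs of 6 and 17 pyrimidines, and that of Rps24 is the longest at the main TSS of any member. For Rps24 the highest peak of replicate 2 was centred at -3648 bp from the main TSS and 12 bp from the start of Polr3a, while that of replicate 1 was at -68 bp.

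Ordered by where the proteins sit in the ribosome, promoter rank varied within each group. In the stalk, which recruits the elongation factors, Rplp0 scored 143 and 135, Rplp1 143 and 134, Rplp2 138 and 136, and Rpl12, which lies at the stalk base, 135 and 136, for a median lower percentile of 60.8. The 5S particle was split, with Rpl11 at 146 and 139 and Rpl5 near the bottom of all members. Near the peptidyl transferase centre, where peptide bonds form, Rpl3 was at the top, Rpl10 scored 147 and 129, Rpl8 134 and 131, and Rpl4 124 and 117. Their median was 50.4. At the messenger RNA channel and decoding site, Rps2 and Rps15 were high, Rps3 scored 145 and 142, and Rps23, which helps select the right transfer RNA, 131 and 125. The median of these 4 was 85.0. Of 7 proteins around the tunnel exit, 1 stood over the 50th percentile (Rpl35, with 145 and 139) and the median was 35.2. The groups hold 2 to 7 genes each and their ranges overlap. In both replicates the highest peaks of Rpl12 and Rpl4 were nearer to starts of Lrsam1 and Zwilch than to their own. The large subunit as a whole had a median of 60.9 and the small subunit one of 64.7. Among 17 members in which mutations cause Diamond-Blackfan anaemia, an inherited failure of red cell production, the median was 70.5. Their quartiles were 41.3 and 74.6, and 64.7% of them stood over the 50th percentile, against 65.8% of all members.

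The 4 members on the X chromosome were mostly at the low end. Rpl36a scored 124 and 123 and, with Rps4x and Rpl39, stood under the 35th percentile, whereas Rpl10 reached 54.0 in its weaker library. Their median lower percentile of 30.8 lay beside 25.8 for all 403 open genes of the 948 protein-coding genes on X, and beside 62.2 for the 72 autosomal members. All 4 were open, against 42.5% of X-linked genes. The copy number of X in these cells is unknown, and its part in these scores was not tested. Chromosome 7 held 14 members, the most of any, with a median of 66.5.

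Replicates ranked most members alike, with a few exceptions. Replicate 1 had the higher score in 70 members, replicate 2 in 4 and neither in 2, but by percentile replicate 1 was higher in 35 and replicate 2 in 41. The median difference in percentile between replicates was 7.27, against 5.74 over open protein-coding genes. The largest was that of Rps16, whose scores of 148 and 129 correspond to percentiles of 91.6 and 54.0. Rpl10 came next (87.2 and 54.0), then Rps6, the target of the S6 kinases, with scores of 142 and 117 (66.9 and 35.1). Rpl13 went the other way, with 140 in replicate 1 and 142 in replicate 2 (60.9 and 89.2). Ranks of these 4 thus depend on which library is read. The highest peaks of both replicates overlapped each other at 71 of 76 members (93.4%, against 91.5% of open genes).

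Other genes of protein synthesis and turnover were also mostly open, and their ranks differed. Of 78 mitochondrial ribosomal protein genes, which serve the separate ribosomes of mitochondria, 78 were open, with a median lower percentile of 46.7 that equals that of all open genes. Mrpl18 (150 and 149), Mrps18b (150 and 142), Mrpl49 (147 and 142) and Mrpl34 (149 and 141) were highest. The proteasome, a protein-degrading complex, had 37 of 39 genes open (94.9%) and a median of 60.9. The proteasome genes without a shared region were Psma8 and Psmb11, subunits of the testis and thymus forms, and Psmd8 (150 and 144) and Psma6 (148 and 146) led the list. All 23 translation factor genes and genes with known TOP messages were open with a median of 66.0, led by Eif4b (149 and 149), Hnrnpa1 (149 and 146), Nap1l1 (149 and 145) and Tpt1 (150 and 145). All 44 ribosome biogenesis genes were open with a median of 65.2, led by Ncl, Polr1d, Rrs1 and Nop14. The 16 genes of factors that act on ribosomal protein genes or their messages, among them Sp1 (150 and 150), Tbpl1 (148 and 147), Yy1 (147 and 143) and Rheb (147 and 140), were all open with a median of 74.6. So the cytosolic ribosomal protein genes stood beside the proteasome and below the translation factors, and above the mitochondrial ribosomal proteins, with wide overlap among all of these lists.

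**Figure D2:**
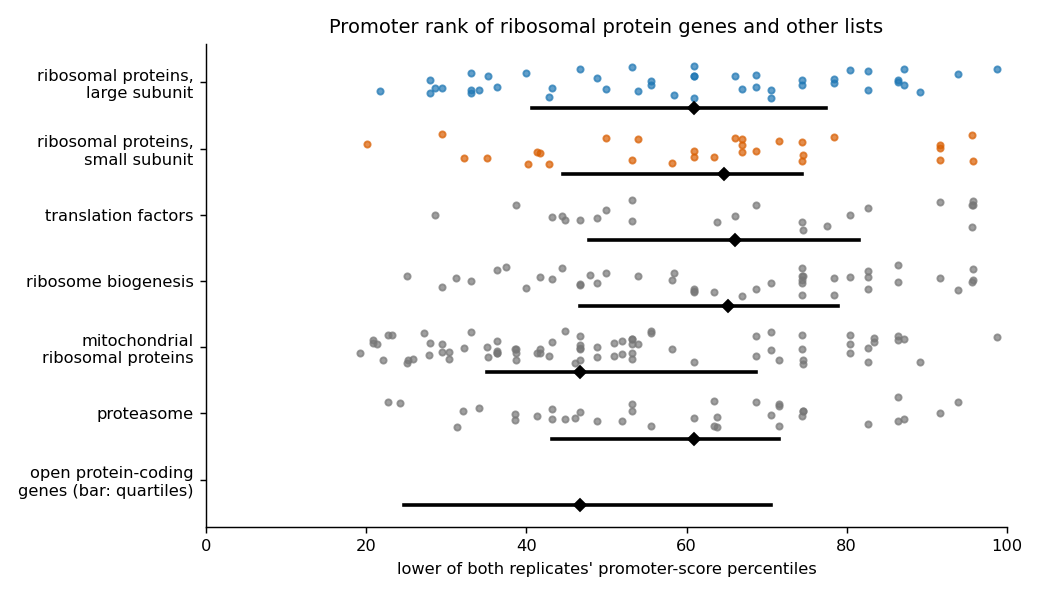
Lower of both replicates' promoter-score percentiles (horizontal axis) for the open genes of 6 lists, 1 point per gene with vertical scatter only for legibility, with a bar from the lower to the upper quartile and a diamond at the median. Medians are 60.9 and 64.7 for the large and small subunit, 46.7 for mitochondrial ribosomal proteins and 46.7 for all open protein-coding genes, for which only the bar is drawn.

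The polypyrimidine start that marks this gene family was found at a larger share of members than of all protein-coding genes, though not at most annotated starts. A C at the main TSS followed by at least 4 bases that were each C or T was present at 11 of 76 members (14.5%, 95% Wilson interval 8.28% to 24.1%), against 2.15% of all protein-coding genes and 2.23% of open ones. It was present at 5.13% of mitochondrial ribosomal protein genes, at none of 39 proteasome genes and at 13.0% of the translation factors. The count depends on how precisely the start is annotated. Within 5 bases of the main TSS 28 members had such a run (36.8% against 17.6%), and with the RefSeq starts of the same assembly, matched for 56 members, 13 had one (23.2% against 2.71% of 16539 genes). Over all 454 annotated starts of the members, 10.1% had it, against 2.18% of the starts of protein-coding genes, and 34 members (44.7%) had at least 1, against 8.52%. A choice made after the data were seen compared the strands: a run of at least 8 bases of C or T within 50 bases of the main TSS was found on the coding strand at 51 members (67.1%) and on the opposite strand at 14 (18.4%). Over all protein-coding genes both strands were alike, at 36.0% and 36.6%. Beside the 4 already printed, 6 further starts are shown because they carry this finding, with the run in capitals and the annotated start as its first base.
Rpl37, chr15:5116630-5116664, plus strand: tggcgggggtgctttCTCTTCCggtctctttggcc
Rpl30, chr15:34443203-34443237, minus strand: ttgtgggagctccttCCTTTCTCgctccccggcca
Rpl36, chr17:56613401-56613435, plus strand: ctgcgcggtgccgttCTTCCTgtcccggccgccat
Rps15a, chr7:118115658-118115692, minus strand: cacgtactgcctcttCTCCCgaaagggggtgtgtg
Rpl32, chr6:115808728-115808762, minus strand: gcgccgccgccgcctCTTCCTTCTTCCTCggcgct
Rpl4, chr9:64173360-64173394, plus strand: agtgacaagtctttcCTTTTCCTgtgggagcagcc
In each of them the capital run follows directly on the TSS, with run lengths from 5 bases at Rps15a to 14 at Rpl32. By the lower percentile these ran from Rpl37, with scores of 147 and 144, to Rpl4, with 124 and 117. The highest Rpl4 peaks of replicates 1 and 2 were centred 464 and 404 bp from its nearest start. They were 2 and 57 bp from a start of Zwilch, so these scores cannot be assigned to Rpl4 alone. The 11 members with the start had a median lower percentile of 55.5 and the 65 without it one of 60.9. The order turned with the definition: the 28 members with a run within 5 bases stood at 66.5 against 58.3, and the 7 whose C was followed by at least 6 pyrimidines at 86.4 against 60.9.

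Binding motifs were sought as exact letters on both strands from 250 bases before the main TSS to base 50 from it. The element CTCGCGAG, a palindrome known from a class of CpG-rich promoters, was held by 10 members (13.2%, interval 7.31% to 22.6%), against 1.18% of all protein-coding and 1.78% of open promoters. Mitochondrial ribosomal protein genes had it at 3.85% and proteasome genes at 5.13%. Its 11 sites began between base -242 and base 27 from the TSS, and 7 sites in 7 genes were inside the highest peak of both replicates. The sites of 7 of these genes are shown because they carry this difference, with the element in capitals, read on the strand of the gene.
Rps6, chr4:86857395-86857432, minus strand: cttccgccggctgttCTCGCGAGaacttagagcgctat
Rps19, chr7:24884551-24884588, plus strand: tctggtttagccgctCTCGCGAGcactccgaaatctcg
Rps19, chr7:24884570-24884607, plus strand: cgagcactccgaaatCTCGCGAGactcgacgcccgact
Rpl27a, chr7:109519158-109519195, plus strand: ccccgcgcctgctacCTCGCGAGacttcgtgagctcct
Rpl4, chr9:64173118-64173155, plus strand: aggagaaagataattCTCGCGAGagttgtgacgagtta
Rpl26, chr11:68901526-68901563, plus strand: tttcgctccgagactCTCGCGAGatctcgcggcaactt
Rpl10a, chr17:28328520-28328557, plus strand: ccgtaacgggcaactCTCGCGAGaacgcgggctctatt
Rps28, chr17:33824540-33824577, minus strand: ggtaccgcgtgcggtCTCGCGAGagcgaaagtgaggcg
Rps19 carries a pair of these elements at bases -148 and -129. The site of Rps6 begins at base -5 and that of Rps28 at base 1, so these elements overlap or adjoin the annotated start. Member promoters with the element had a median lower percentile of 53.7 and those without it one of 60.9.

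The ETS motif CCGGAAG, which the GABP factor and its relatives bind, was in 25 member promoters (32.9%, interval 23.4% to 44.1%), against 11.2% of all and 17.0% of open promoters. Shares were similar in mitochondrial ribosomal protein genes (37.2%), proteasome genes (30.8%) and translation factors (30.4%). Of 32 such sites, 18 sites in 17 genes lay inside the highest peak of both replicates, and the median position of all 32 was -25.5 bases from the TSS. The YY1 motif ATGGCGGC was in 7 members (9.21% against 2.74% of all and 4.32% of open promoters), among them Rpl34, Rpl22, Rpl13a, Rps13 and Rpl36. Mitochondrial ribosomal protein genes had it at 15.4%, proteasome genes at 7.69% and translation factors at 13.0%. The cyclic AMP response element TGACGTCA was in 6 members (7.89% against 2.45% and 3.29%), and in the same lists at 2.56%, 5.13% and 4.35%. The E-box CACGTG, a site of the Myc family, was in 10 members (13.2% against 7.76% and 9.83%). Those lists had it at 6.41%, 15.4% and 17.4%. Other motifs were near or below the level of open promoters: the SP/KLF box GGGCGGG in 42.1% against 46.3%, the NFY box CCAAT in 28.9% against 37.7%, the AP-1 site TGANTCA in 5.26% against 4.82%, and the ZFP143 site ACTACAAT in 1.32% against 1.04%. The NRF1 site GCATGCGC was in 4 members (5.26%) and in 653 of 13054 open promoters, nearly the same share. None of these motifs contains another. Member promoters had a median GC content of 56.3%, against 55.7% for all protein-coding genes. Their median CpG ratio (observed over expected) was 0.871, against 0.553. The ratio was 0.822 for mitochondrial ribosomal, 0.789 for proteasome and 0.881 for translation factor genes. Several of the motifs contain CG, and the part of CpG content in their shares was not tested. A match of letters is a description that does not show binding.

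**Figure D3:**
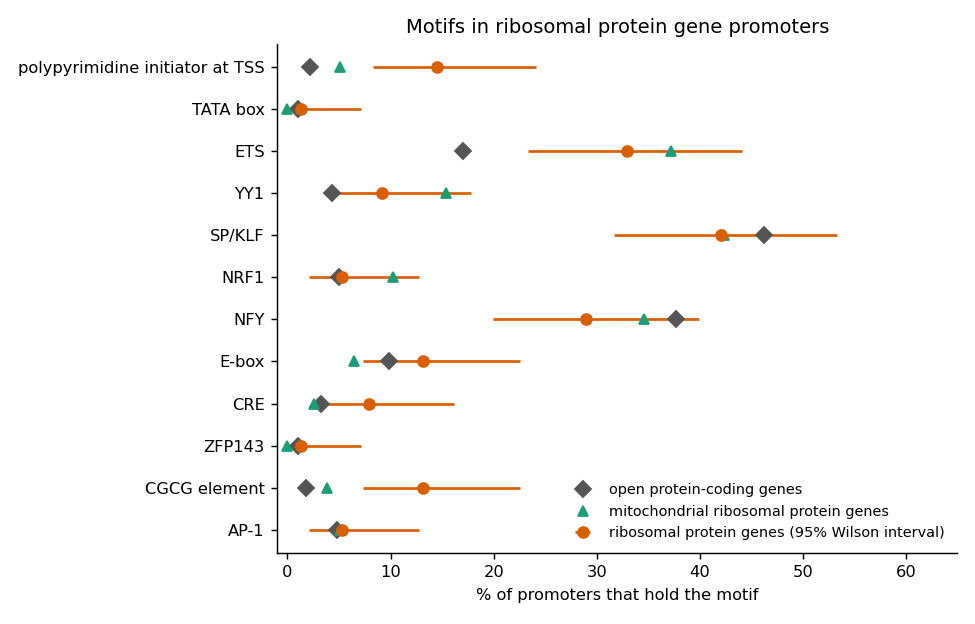
Share of promoters that hold each motif (horizontal axis, %) for the 76 ribosomal protein genes (circles with 95% Wilson intervals), open protein-coding genes (diamonds) and mitochondrial ribosomal protein genes (triangles). The intervals of the polypyrimidine start, the ETS, YY1 and CRE motifs and the CGCG element lie above the values of open genes. For YY1 and CRE the margin is small, with lower ends of 4.53% and 3.67% against 4.32% and 3.29%. The CGCG element is at 13.2% against 1.78%. Intervals cover counting error only, and no test was made.

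The highest peaks lay close to the TSS. The median offset of the peak centre from the main TSS was -38.5 bp in replicate 1 and -43.5 bp in replicate 2, against -36 bp and -41 bp for open protein-coding genes. The members were less spread than these: the median distance regardless of side was 61.5 bp and 64 bp, against 101 bp and 95 bp. Open genes of like lists were closer still: mitochondrial ribosomal (49.5 bp and 40 bp), ribosome biogenesis (55.5 bp and 53 bp) and proteasome (60 bp and 50 bp). Translation factors were farther, at 77 bp and 74 bp. Of their 152 highest peaks, 46.7% were centred in the 100 bp upstream of the main TSS, against 35.8% of the peaks of open genes. The TSS itself lay inside a peak in both replicates at 44 members (57.9%, against 47.0% of open genes). The share was 76.9% for mitochondrial ribosomal, 70.3% for open proteasome, 59.1% for ribosome biogenesis and 52.2% for translation factor genes. Among the exceptions, the highest Rpl18 peak was centred at -2721 bp in both replicates and the highest Rps10 peaks at 1318 bp and 1338 bp, at other annotated starts of these genes. At 9 members the highest peak of both replicates was nearer to a TSS of another coding gene than to any of its own. They were Rpl7a (Med22), Rps27 (Rab13), Rpl9 (Lias), Rps28 (Ndufa7), Rpl4 (Zwilch), Rpl12 (Lrsam1), Rpl15 (Nkiras1), Rps25 (Trappc4) and Rps18 (B3galt4 and Vps52). Their scores cannot be assigned to 1 of these genes. A coding gene that starts within 1 kb on the opposite strand was present at 9 members (11.8%, against 11.1% of open genes).

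The hotspots, wider regions of enriched cutting, were narrow at these genes. A hotspot lay over the main TSS in both replicates at 74 of 76 members. That was 97.4%, against 84.7% of open genes and 100% of mitochondrial ribosomal and of open proteasome genes. All 74 had the −log10 q-value of 100 that the authors wrote as the ceiling, as did 10618 of 11053 open genes with such hotspots. The exceptions were Rpl29 in both libraries and Rpl35 in replicate 2. The smaller of both widths had a median of 1020 bp, against 1236 bp at open genes, 1101 bp at mitochondrial ribosomal protein genes and 1166 bp at proteasome genes. Widths over 2 kb occurred at 2 members (2.70%, against 12.2%), Rpl7 with 2749 and 2580 bp and Rpl10 with 2258 and 2206 bp, and next came Rpl30 (1978 and 1924 bp) and Rpl27a (1869 and 1807 bp). The narrowest was Rps29, with 159 bp in both replicates and scores of 147 and 136, so a narrow hotspot went with a high score there.

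**Figure D4:**
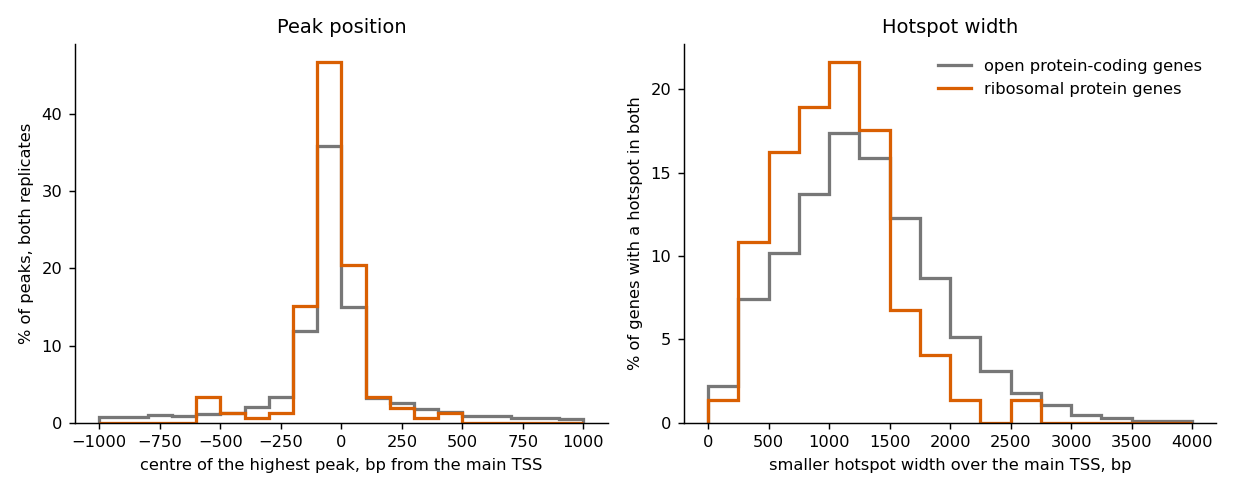
Left, centre of the highest promoter peak in bp from the main TSS (bins of 100 bp, peaks of both replicates), and right, the smaller hotspot width in bp (bins of 250 bp), as % of peaks or genes, for ribosomal protein genes and open protein-coding genes. The bin just upstream of the TSS holds 46.7% of the members' peaks against 35.8%, and the members' widths lie to the left of those of open genes, with medians of 1020 and 1236 bp.

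Many hotspots at ribosomal protein genes ended at exactly the same base in both libraries. This was looked at after the data were seen. At 28 of 74 members (37.8%) the start or the end of the hotspot was identical in both replicates, against 12.3% of open genes, 6.41% of mitochondrial ribosomal protein genes and 18.9% of proteasome genes, and at 6 members (8.11% against 1.07%) both ends were. Rps29, Rpl5 and Rpl37a, with widths of 159, 305 and 446 bp in each replicate, are examples. These genes have many processed pseudogenes, and the share of 32 bp sequences found at a single place on the main chromosomes was counted on both sides of each edge. For 33 identical edges the median share was 96% in the 100 bp inside the hotspot and 65% in the 100 bp outside, and it was lower outside at 28 of the 33. For the 91 counted edges per replicate that differed between replicates, both medians were 100%. Edges of either kind were left out where a flank reached beyond 1 kb from the TSS. Of the 33 edges, 24 were downstream and 9 upstream of the TSS. Within 1 kb of the TSS the median share of such unique sequences was 91.9% at members, against 97.8% at mitochondrial ribosomal protein genes and 98.2% at proteasome genes, and it was lowest at Rps2 (65.3%) and Rpl37a (69.3%). The part of repeated sequence in the narrow widths was not tested.

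Ribosomal protein pseudogenes, the copies of these messages scattered through the genome, were mostly without a shared region. Of 294 pseudogenes named for an Rpl or Rps gene, 15 (5.10%, interval 3.12% to 8.25%) had a shared region within 1 kb of their start, and of all 9940 processed pseudogenes 480 did, a background of 4.83%. More than 2.5 kb from a coding TSS the counts were 13 of 287 (4.53%), against 425 of 9451 other processed pseudogenes (4.50%). The share of unique 32 bp sequences was not counted around pseudogenes, and its part in these counts was not tested. The strongest was Rpl29-ps2, with scores of 141 and 139, whose start lies 160 bp from a coding TSS, and the next was Rpl31-ps20 with 105 and 57. Intact relatives outside the rule differed among themselves. The canonical ribosomal protein genes Fau (147 and 142) and Rps3a1 (141 and 137) were open. Of 8 paralogues, 5 were open, namely Rpl22l1 (149 and 140), Rpl36al (145 and 137), Rps27l (142 and 137), Rpl7l1 (145 and 130) and Rpl39l (82 and 79), and Rpl10l, Rpl3l and Rps27rt had no shared region.

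The genes themselves are short and rich in small nucleolar RNAs, which guide the modification of ribosomal RNA from the introns of their host genes. At least 1 lay within 29 members (38.2%, 56 in all), against 1.69% of open genes, such as Rpl4 with 5 and Rpl13a with 4. Host members had a median lower percentile of 58.4 and the others one of 63.5. The median member spanned 3266 bp. Shared regions inside the gene body and more than 1 kb from every TSS of that gene were present at 18 members (23.7%). The share was 66.6% for open genes, which are longer. Regions at promoters of other genes within the body were not left out.

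Distal regions, the shared regions more than 2.5 kb from any TSS, were about as frequent near these genes as near other open genes. Within 50 kb of the main TSS the members had a median of 6 and a mean of 5.76, with a range of 0 to 22, and open protein-coding genes a median of 5 and a mean of 5.63. None was found near 3 members (3.95%, against 6.48%), Rps9, Rps27a and Rpl10. Rps21 had the most with 22, followed by Rpl10a with 18, Rpl19 with 13, and Rplp1 and Rps14 with 12 each. At Rps21 several lay in Lama5, a laminin gene, and the highest, at mm10 chr2:180228756-180228905, scored 128 and 124 and was centred at -28547 bp from the TSS. The highest near Rpl10a (chr17:28341216-28341385, 123 and 119) lay in Tead3, a gene of a transcription factor, and the highest near Rpl19 (chr11:98037976-98038145, 137 and 117) in Stac2. Over all members there were 436 distinct regions, with a median score of 72 in replicate 1 and 64 in replicate 2, against 62 and 55 for all 75558 distal regions. The AP-1 site TGANTCA was present in 14.2% of them, against 17.5% of all. Neither the scores nor this share were computed for distal regions near other open genes, so neither difference can be laid to these members. The strongest was a region in Ift122, centred at -47804 bp from the TSS of Rpl32 (chr6:115856476-115856625, 143 and 130), followed by one at -5962 bp from that of Rps10 (chr17:27642536-27642725, 143 and 129). Only 10 lay within a member's own gene, in 6 genes, the highest in Rpl22 (chr4:152333076-152333225, 118 and 121). Which gene, if any, a distal region acts on was not tested.

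**Figure D5:**
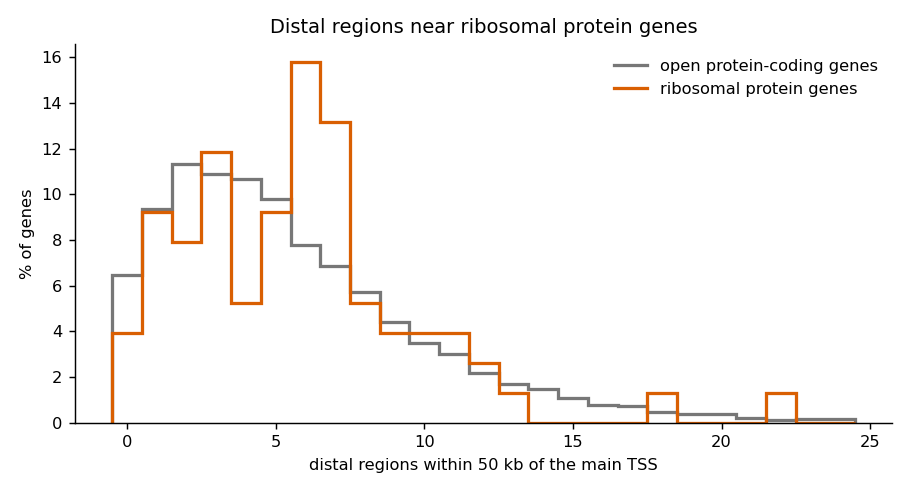
Number of distal regions within 50 kb of the main TSS (horizontal axis) and share of genes with that number (vertical axis, %), for the 76 ribosomal protein genes and 13054 open protein-coding genes. The members' median is 6 and that of open genes 5, and Rps21 (22) and Rpl10a (18) stand apart on the right.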

How the data were processed

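DNase-seq peaks and hotspots of 2 libraries (1 group) were analysed. Per the labels the assembly is mm10, and both kinds of list were deposited per library, not pooled. For the aligner, peak caller and read depth: not given in the sources used here. The authors deposited a score for each peak, used only to rank peaks within a list, and for each hotspot the −log10 of a q-value, used as a description. A list of peaks depends on depth and on the caller, so the lack of a peak does not show closed chromatin.

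Peaks on 21 chromosomes were kept and repeated entries (15 and 26) counted once. Shared regions (127807) were made by merging the peaks of both replicates that overlapped by 1 bp or more. Coordinates are 1-based, and sequences were read from GRCm38, the assembly of mm10, at TSSs of GENCODE M21. Genes were counted by gene identifier. Percentiles use the mean rank for ties. Small nucleolar RNA genes were those annotated within a member. All values are descriptions: 1 group of 2 libraries allows no test. The replicates are separate samples by their labels only.

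The genes named were members without a shared region, the 6 highest and 6 lowest by the lower percentile, the 4 with the largest difference between replicates, the role lists, X-linked members, the 4 with most distal regions, the 4 widest hotspots and, of other lists, up to 4 highest and 3 without a region. Genes named for position, hotspot edges, motifs, pseudogenes or small nucleolar RNAs were chosen after their values were seen. Members and lists were chosen with earlier results of these data known. Rps4l of the paralogue list was not among the coding genes. Alternatives were other windows, overlaps, peak sets and start annotations and each replicate alone. The steps were tested on simulated data. Python 3.11.15, numpy 2.4.6, pandas 2.3.3, scipy 1.17.1 and pysam 0.24.0 were used. Results of some genes are not reported here.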

Additional observations from a re-analysis of the deposited data

How the results depend on the processing

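The count of open members was 76 under 7 alternatives and 75 under an overlap of 50% of both peaks. Among the 7, a single replicate or a wider window could hardly lower the count. The median lower percentile of 60.9 ran from 66.0 to 70.5 with a single replicate, where it is that library's own percentile, and was 96.6 when ranked among all peaks instead of promoter peaks, against 94.7 for open genes. The median hotspot width of 1020 bp ran from 1112 to 1117 bp with a single replicate, where no smaller width is taken. The mean of 5.76 distal regions was 2.80 within 25 kb, 11.9 within 100 kb, 3.72 more than 5 kb from any TSS and 3.63 for the stronger 50% of peaks, against 2.64, 11.6, 3.77 and 3.20 at open genes, and ran from 7.54 to 8.55 with a single replicate. The polypyrimidine start, at 14.5%, was at 36.8% within 5 bases, at 44.7% at any annotated TSS and 67.1% for a run of 8 within 50 bases, the last a choice, like the one before it, made after the data were seen. The lower percentiles of the 12 highest and lowest members moved by more than their spread between replicates in 36 of 84 alternatives. No paired analysis was possible because there is only 1 group. Read depth, which is unknown, limits which weak peaks were called.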
